A study of Mus musculus with 24 samples.

Results

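The genes described here encode the mitogen-activated protein kinase (MAP kinase) cascade: MAP kinases, the MAP kinase kinases (MAP2K) that phosphorylate them, and the MAP3K and MAP4K enzymes above those. Members were the genes whose symbol in the array's probe-to-gene table is Mapk, Map2k, Map3k or Map4k followed by a number, and each gene was read from its single-symbol probe set with the highest mean signal over all arrays. This gave 35 of the 18193 genes tested: 3 MAP4K, 15 MAP3K, 6 MAP2K and 11 MAP kinase genes. The rule uses symbols and mean signals only.

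The mRNA was measured with Affymetrix Mouse430_2 arrays, in thymocytes that carry both CD4 and CD8 (double positive, DP), the immature T cells that undergo selection in the thymus. The donors were 12 male Black 6J mice, all 8 weeks old, 3 each of wild type (WT), the Sap knockout (SapKO), the Elk knockout (ElkKO) and the knockout of both (ElkSapKO). Sap and Elk are read here as Sap-1 (gene Elk4) and Elk-1 (gene Elk1). The labels do not give the alleles, or say which cells carry them. From each mouse, DP cells were sorted with anti-CD4 and anti-CD8, rested for 2 h, and then kept for 30 min either on anti-CD3-coated plates, to trigger the T cell receptor, or on plates without a coat. Cells from coated plates are called stimulated, and the 8 groups of 3 arrays (24 in all) share the sort, the rest and the sex and age of the mice. The series asks what ternary complex factors, the family of Elk-1 and Sap-1, do in positive selection. Precision is limited by having 3 arrays per group.

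A MAP kinase cascade passes a signal by phosphorylation from a MAP4K or a small GTPase to a MAP3K, then to a MAP2K and at last to a MAP kinase. Its main branches end in ERK, JNK, p38 and ERK5. In DP thymocytes the ERK branch is needed for positive selection, and the p38 and JNK branches are linked to negative selection. ERK phosphorylates the ternary complex factors, which belong to the ETS family and sit on DNA beside serum response factor (Srf). The arrays measure the mRNA of the kinases and not their phosphorylation or activity.

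Promoter sequences in which an ETS motif could be looked for were listed by RefSeq (assembly GRCm38.p6) for 30 of the 35 members, as 41 windows that start 250 bases before a transcription start. The ETS motif searched was CCGGAAG on both strands, and it occurred in 3 of the 41 windows, those of Map3k11, Map3k6 and Map4k1, against 6.91% of all 32851 windows in the table. A CArG box, the site of Srf, occurred in 0 of the 41 windows and in 1.47% of all windows. A match describes the letters only. Of the 9 kinases that passed a test below, 8 were in the table. Map3k8 was not. The windows are shown for Map2k6, which passed the test in both states of ElkSapKO, and for Map3k11 and Map4k1, which passed it in stimulated ElkSapKO and hold the ETS motif. Each reads 5′ to 3′ on the strand of the gene, and capitals mark the 4-letter ETS core GGAA or its reverse TTCC, which 93.4% of all windows hold. The window of Map2k6, the first of its 3 listed starts, is at chr11:110398852-110399101 on the plus strand, that of Map3k11 at chr19:5688881-5689130 on the plus strand, and that of Map4k1, the first of 2 listed starts, at chr7:28981800-28982049 on the plus strand. The ETS motif in Map3k11 lies on the minus strand at -104 to -98 from the start, and that in Map4k1 on the plus strand at -250 to -244.
Map2k6: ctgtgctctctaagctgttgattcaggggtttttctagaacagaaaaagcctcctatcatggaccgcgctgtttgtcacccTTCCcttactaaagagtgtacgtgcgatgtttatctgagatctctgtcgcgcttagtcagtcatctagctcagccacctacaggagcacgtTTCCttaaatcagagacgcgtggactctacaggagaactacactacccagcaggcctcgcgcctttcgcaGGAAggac
Map3k11: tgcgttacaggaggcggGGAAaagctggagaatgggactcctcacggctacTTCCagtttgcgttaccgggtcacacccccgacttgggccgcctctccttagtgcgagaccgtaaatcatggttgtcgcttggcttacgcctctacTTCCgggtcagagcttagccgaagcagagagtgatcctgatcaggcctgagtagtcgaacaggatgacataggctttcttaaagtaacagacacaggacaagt
Map4k1: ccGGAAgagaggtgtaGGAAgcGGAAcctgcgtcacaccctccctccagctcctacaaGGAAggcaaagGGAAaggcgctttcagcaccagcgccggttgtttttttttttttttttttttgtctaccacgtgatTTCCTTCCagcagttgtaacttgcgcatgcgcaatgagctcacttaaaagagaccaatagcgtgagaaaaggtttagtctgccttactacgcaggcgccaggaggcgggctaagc

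Of the 35 kinases, 26 had a mean signal above background, taken here as 5.07 log2, the highest signal of Xist, which male cells do not express. The 9 at or below it were the MAP3K genes Map3k6, Map3k8, Map3k9 and Map3k21 and the MAP kinase genes Mapk4, Mapk10, Mapk11, Mapk12 and Mapk13. Of the 4 genes for p38 kinases, only Mapk14 (p38 alpha) was above it, and of the 3 genes for JNK kinases, Mapk8 (JNK1) and Mapk9 (JNK2) were. All 6 MAP2K and all 3 MAP4K genes among the members were above it. The members are genes with a single-symbol probe set, which need not be every gene of a tier. The members hold 92 probe sets, and 25 members have more than 1.

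Some array measures differed by genotype. A sign of RNA degradation, Actb 3′ minus 5′ signal, was 0.151 to 0.359 log2 in WT, 0.166 to 0.240 in SapKO, 0.381 to 0.654 in ElkKO and 0.545 to 1.05 in ElkSapKO. The dap spike-in was low (5.92 to 6.63) in 8 arrays, both of SapKO mice 1 and 3 and both of WT mice 1 and 2, and high (8.83 to 9.78) in the other 16, so 1 WT mouse shares the level of all ElkKO and ElkSapKO mice. One array was unlike the rest, that of untreated ElkSapKO mouse 2: the middle spread of its genes around their medians was 0.826 log2, and that of the remaining 23 arrays was 0.179 to 0.363. Elk4 was at 10.25 to 10.99 in WT and ElkKO and at 6.13 to 7.85 in SapKO and ElkSapKO, whereas Elk1 was near background in each genotype and checks its label weakly. The 9 measured DP markers had mean levels of 10.7 to 11.3 in all groups, but in ElkSapKO the sort markers were lower in part: Cd8a fell by 0.52 in untreated cells (adjusted p = 0.0404) and Cd4 by 0.90 in stimulated cells (adjusted p = 0.0128). Their part in the kinase differences was not tested. Markers of mature T cells were lower in ElkSapKO: of 4 measured, S1pr1, Ccr7 and Il7r fell in untreated cells and Ccr7 in stimulated cells, and the mean level of the list was 6.43 to 6.72 in untreated ElkSapKO against 7.69 to 8.27 in untreated WT. Markers of B cells were near background for 4 of 5, of granulocytes for 5 of 5, and of macrophages and dendritic cells for 5 of 8. Those of epithelium and stroma were so for 4 of 7, and of erythroid cells for 2 of 2. In untreated ElkSapKO the epithelium and stroma list had a median change of 0.37 log2, against 0.03 over all genes. Of its 7 genes only Pecam1 passed limma's test, against 3.44% of all genes, and it fell by 0.79 (adjusted p = 0.0207). In a sorted population, fewer cells of a type and less RNA per cell cannot be told apart.

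Anti-CD3 was shown to change the mRNA of almost none of the kinases within 30 min. Map3k8, which encodes Tpl2 (Cot), a MAP3K that activates Map2k1 and Map2k2, was the exception: it rose when the response was averaged over the 4 genotypes and in ElkSapKO alone. Untreated and stimulated Map3k8 signals of WT mice 1 to 3 were 4.57, 4.52 and 4.13 and then 4.57, 5.35 and 5.07 log2. In SapKO mice 1 to 3 they were 4.60, 4.63 and 4.56 and then 5.42, 5.47 and 5.89. Every stimulated SapKO array was thus above every untreated one, whereas WT mouse 1 had the same signal in both states. In ElkKO mice 1 to 3 they were 4.20, 3.70 and 4.45 and then 4.34, 4.65 and 5.06. In ElkSapKO mice 1 to 3 they were 4.01, 3.98 and 4.59 and then 5.11, 5.60 and 5.41. The stimulated array was the higher one in 12 of 12 mice, and the groups overlapped in ElkKO only, although in WT the highest untreated and the lowest stimulated signal were nearly equal. All untreated signals were within the range of Xist, so changes are given on the log2 scale and without a fold.

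**Figure D1:**
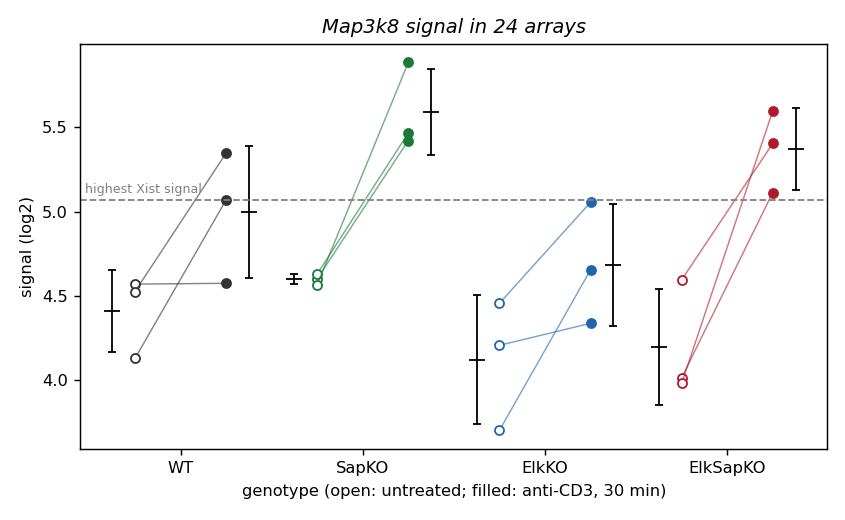
Map3k8 signal (log2, vertical axis) in each array, by genotype, with open circles for untreated and filled circles for stimulated cells. Lines join the arrays of a mouse, black bars are the mean and SD of 3 arrays, and the dashed line is the highest Xist signal, 5.07: all untreated points lie below it, and all stimulated SapKO and ElkSapKO points, 5.11 to 5.89, lie above it.

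The averaged Map3k8 response was 0.83 ± 0.115 log2 (SE of limma's fit, 12 mice, adjusted p = 8.1e-05), and the response in ElkSapKO was 1.18 ± 0.230 (adjusted p = 0.0175). It was 0.99 in SapKO (adjusted p = 0.0707), 0.59 in WT (adjusted p = 0.984) and 0.56 in ElkKO (adjusted p = 1.00), which did not pass. The responses were not shown to differ between genotypes: the difference from WT was 0.40 for SapKO, -0.03 for ElkKO and 0.59 for ElkSapKO, with a 95% interval of -0.09 to 1.26 for the last (adjusted p = 1.00, 1.00 and 0.703). The first was -0.10 with the high dap arrays alone, where it compares only SapKO mouse 2 with WT mouse 3. The averaged rise passed with any single array left out, and with only the 16 arrays of high dap level it was 0.88 (adjusted p = 0.0725). The call in ElkSapKO was lost without both arrays of mouse 2 (0.96, adjusted p = 0.417). It was also lost on leaving out untreated mouse 1 (adjusted p = 0.0558), untreated mouse 2 (0.0868), stimulated mouse 2 (0.156) or stimulated mouse 3 (0.0720). A fit of the 6 ElkSapKO arrays alone gave an adjusted p of 0.608. In SapKO the adjusted p went from 0.0707 to 0.00209 when the 6 SapKO arrays were fitted alone, and it also passed without both arrays of ElkSapKO mouse 2 (0.0429), without stimulated WT mouse 1 (0.0428), untreated ElkKO mouse 2 (0.0489), or untreated ElkSapKO mouse 2 (0.0369) or 3 (0.0424).

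With limma's test, 1 of 35 kinases passed in the averaged response, against 1.45% of all genes, and 1 of 35 in ElkSapKO, against 0.346% of all genes; both were Map3k8. In WT, SapKO and ElkKO alone 0 of 35 passed (3, 1 and 2 at an unadjusted p under 0.05, against 4.23%, 2.23% and 2.56% of all genes), where 0.352%, 0.363% and 0.203% of all genes did, and Map3k8 had the smallest adjusted p of the 35 each time. The median averaged change of the 35 was 0.04 log2, against 0.007 over all genes. The next smallest adjusted p values in the averaged response belonged to Mapk6 (0.18, adjusted p = 0.555) and Map3k11 (0.28, adjusted p = 0.566). Mapk6 encodes the atypical kinase ERK3, and its signal was higher after anti-CD3 in 11 of 12 mice. The mixed-lineage kinase gene Map3k11 (MLK3) was also higher in 11 of 12, the exception being ElkSapKO mouse 2 at -0.89, and it passed without both arrays of that mouse. The other tiers stayed close to 0: averaged changes were -0.06 to 0.10 in the MAP4K, -0.06 to 0.08 in the MAP2K and -0.03 to 0.18 in the MAP kinase genes. The median 95% interval of a member's averaged change reached 0.189 log2 to either side. That interval is not adjusted for the number of genes tested. Larger changes could thus also go without a call, as that of Map3k11 (0.28) did.

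Map2k1 and Map2k2, which encode the MEK kinases that activate ERK, gave no call in any response. Map2k1 signals in untreated and stimulated WT mice 1 to 3 were 8.00, 7.85 and 7.89 and then 7.69, 7.93 and 7.83 log2, which overlap. Those of Map2k2 were 8.86, 9.07 and 8.72 and then 8.97, 9.02 and 9.20. Averaged over genotypes, the responses were -0.06 ± 0.083 for Map2k1 and -0.06 ± 0.162 for Map2k2 (adjusted p = 0.999 for both). The sign of either was not stable: without untreated ElkSapKO mouse 2 the value for Map2k2 was 0.08, and without untreated ElkSapKO mouse 3 that for Map2k1 was 0.009.

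Differences between responses were also tested directly, and 0 of 35 kinases passed in SapKO, ElkKO or ElkSapKO against WT (0, 0 and 2 at an unadjusted p under 0.05, against 0.786%, 0.907% and 5.4% of all genes), with 0% of all genes in each. The smallest adjusted p in the ElkSapKO difference was that of Map3k9 (MLK1), at -0.64 log2 (adjusted p = 0.703). It was that of Map3k8 in the SapKO difference and that of Map3k6, another MAP3K, in the ElkKO difference (-0.61), each with an adjusted p of 1.00. The median 95% interval of a member's difference reached 0.534 log2 to either side.

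No kinase was shown to change without Sap-1 alone. With limma's test 0 of 35 passed in untreated SapKO and 0 in stimulated SapKO (0 and 1 at an unadjusted p under 0.05, against 1.65% and 2.97% of all genes), against 0.0824% and 0.0715% of all genes. The median change was -0.02 log2 untreated and -0.04 stimulated, and the median 95% interval of a member reached 0.378 log2 to either side. The smallest adjusted p was that of Map3k9 in untreated cells (0.22) and that of Map3k8 in stimulated cells (0.60), each with an adjusted p of 1.00. Of the 35 kinases 21 were below WT untreated and 27 stimulated, against 54.6% and 57.8% of all genes. Among them were all 6 MAP2K genes in both states. These were lower by 0.03 to 0.19 log2 untreated and by 0.02 to 0.33 stimulated, and none passed.

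Without Elk-1 alone 0 of 35 kinases passed limma's test in either state (5 untreated and 6 stimulated at an unadjusted p under 0.05, against 7.21% and 11.4% of all genes), against 0.0989% and 0.22% of all genes. Map2k6, which encodes MKK6, an activator of p38, had the smallest adjusted p in both states. Its signals in untreated ElkKO mice 1 to 3 were 7.51, 7.64 and 7.28 and in stimulated ones 7.65, 7.63 and 7.33 log2. In WT mice 1 to 3 they were 8.27, 8.07 and 7.98 untreated and 8.10, 8.21 and 7.91 stimulated, so all 6 ElkKO arrays were below all 6 WT arrays. The difference was -0.63 ± 0.135 untreated (adjusted p = 0.0860) and -0.53 ± 0.135 stimulated (adjusted p = 0.0974). It passed without the untreated array of ElkSapKO mouse 2 (adjusted p = 0.0279 and 0.0412) and without both arrays of that mouse (0.0212 and 0.0324). With the Actb 3′ minus 5′ signal as a covariate the differences were -0.34 and -0.30 (adjusted p = 0.717 and 0.465). The Actb measure did not overlap between WT and ElkKO, so its part in these differences and that of the genotype cannot be told apart.

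The other values in ElkKO also leaned below WT. Here too the Actb measure and the genotype cannot be told apart, and dap was low in 4 WT arrays and 0 ElkKO arrays. Of the 35 kinases 26 were below WT in untreated and 27 in stimulated cells, against 54.3% and 53.5% of all genes, with medians of -0.12 and -0.19 log2. All 3 ElkKO arrays lay below all 3 WT arrays for 6 kinases untreated and 8 stimulated, as they did for 11.1% and 11.6% of all genes. Both lists hold Map2k6, Map3k10, Map3k12, Map4k1 and Mapk7. By tier, the median was -0.27 and -0.26 in the MAP4K, -0.07 and -0.07 in the MAP3K, -0.17 and -0.29 in the MAP2K and -0.06 and -0.19 in the MAP kinase genes.

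**Figure D2:**
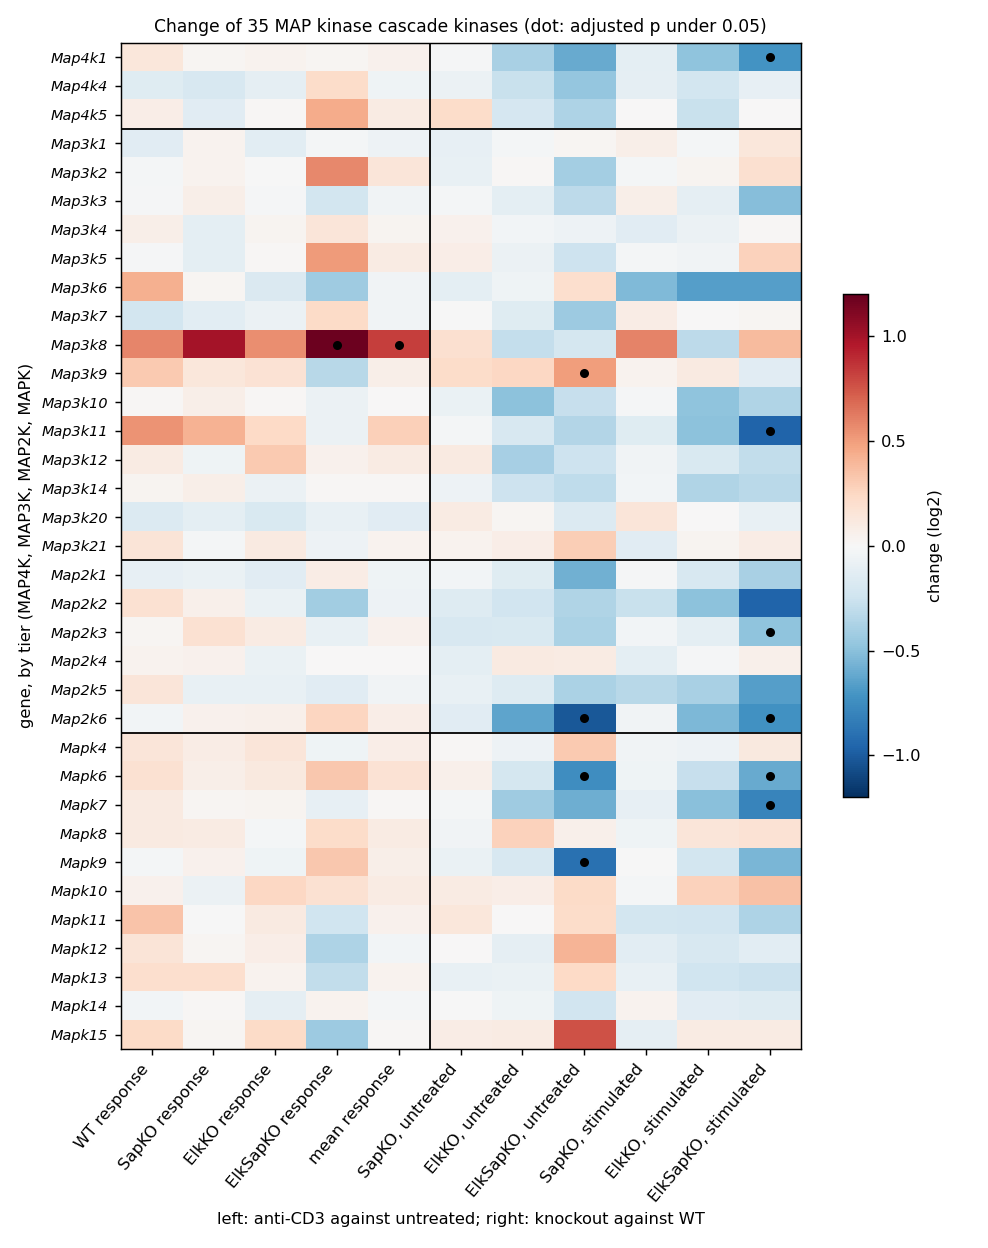
Change (log2, colour) of each of the 35 kinases, grouped by tier, in the anti-CD3 responses (left) and in each knockout against WT (right), with dots where the adjusted p was under 0.05. Dots are at Map3k8 in the ElkSapKO and mean responses and otherwise only in the ElkSapKO columns, with 4 in untreated and 6 in stimulated cells.

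In ElkSapKO against WT, kinases of all 4 tiers fell in stimulated cells, and MAP2K and MAP kinase genes fell in untreated cells. As in ElkKO, the Actb measure and the genotype cannot be told apart, and dap was low in 4 WT arrays and 0 ElkSapKO arrays. Without the untreated array of ElkSapKO mouse 2, which stands apart, 6 passed in untreated cells, Map2k2, Map2k3, Map2k6, Map3k11, Mapk6 and Mapk7, so that a MAP3K gene was among them. In untreated ElkSapKO cells 4 of 35 passed, against 3.44% of all genes: Map2k6, Mapk6 and Mapk9 fell, as 2.69% of all genes did, and Map3k9 rose. In stimulated cells 6 of 35 passed, against 6.83% of all genes, and all 6 fell, as 5.43% of all genes did: Map4k1, Map3k11, Map2k3, Map2k6, Mapk6 and Mapk7. The median change of the 35 was -0.25 log2 untreated and -0.15 stimulated, against 0.03 and -0.005 over all genes, and 23 and 22 of the 35 were below WT, against 46.6% and 50.8% of all genes. All 3 ElkSapKO arrays lay below all 3 WT arrays for 9 and 12 kinases, as they did for 9.4% and 13.9% of all genes. With the Actb measure as a covariate 0 of the calls remained in either state. With the dap level as a block only those of Map2k6 remained, as given below.

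At the top of the cascade, Map4k1 encodes HPK1, a kinase of blood cells that restrains T cell receptor signalling. Its signals in stimulated WT mice 1 to 3 were 9.09, 9.20 and 9.07 log2, and in stimulated ElkSapKO mice 1 to 3 they were 7.95, 8.32 and 8.96. All ElkSapKO arrays were below WT, mouse 3 by little. The difference was -0.71 ± 0.205 (1.64-fold lower, adjusted p = 0.0390), and in untreated cells it was -0.60 (adjusted p = 0.0957). The call was lost without any single stimulated WT array (adjusted p = 0.0813 to 0.120) and without that of ElkSapKO mouse 1 (-0.48, adjusted p = 0.268) or 2 (0.130). Map4k4 and Map4k5 were at -0.46 and -0.37 untreated and -0.09 and 0.00 stimulated, with no call.

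Among the MAP3K genes, Map3k11 fell in stimulated cells and Map3k9 rose in untreated cells. Both encode mixed-lineage kinases, which act above JNK. Map3k11 was at 8.27, 8.45 and 8.29 log2 in stimulated WT mice 1 to 3 and at 7.10, 7.31 and 7.72 in stimulated ElkSapKO mice 1 to 3, with no overlap. The difference was -0.96 ± 0.242 (1.95-fold lower, adjusted p = 0.0219). In untreated cells it was -0.35 (adjusted p = 0.363), and the untreated array of ElkSapKO mouse 2, at 8.20, was above all 3 WT arrays (7.79, 8.01 and 7.59). Without that array the untreated difference was -0.73 (adjusted p = 0.0388), and on leaving out untreated mouse 1 instead it was 0.03 (adjusted p = 0.945). The call in stimulated cells was lost without any single stimulated WT array (adjusted p = 0.0506 to 0.0791) and without that of ElkSapKO mouse 1 (0.136) or 2 (0.0782).

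Map3k9 was near background throughout. It was at 4.01, 4.09 and 4.05 log2 in untreated WT mice 1 to 3 and at 4.70, 4.77 and 4.20 in untreated ElkSapKO mice 1 to 3, so mouse 3 was close to WT. The difference was 0.50 ± 0.140 (adjusted p = 0.0487), with -0.14 in stimulated cells (adjusted p = 0.644). It passed by little: with mouse as a replicate block its adjusted p was 0.0556, and it was kept in only 4 of the 24 fits that leave out 1 array, with adjusted p up to 0.187. Of the other 13 MAP3K genes none passed in either state, and they lay between -0.43 (Map3k7) and 0.29 (Map3k21) in untreated cells.

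In the MAP2K tier the p38 activators Map2k6 and Map2k3 (MKK3) fell. Map2k6 was at 7.08, 6.99 and 7.21 log2 in untreated ElkSapKO mice 1 to 3 and at 7.45, 7.10 and 7.50 in stimulated ones. All 6 values were below the 6 WT values given above, which were 7.91 to 8.27. The difference was -1.02 ± 0.135 untreated (2.02-fold lower, adjusted p = 0.000402) and -0.72 ± 0.135 stimulated (1.65-fold lower, adjusted p = 0.00460). It passed with any single array left out. In SapKO mice 1 to 3 Map2k6 was at 8.09, 7.95 and 7.89 untreated and 8.09, 8.06 and 7.94 stimulated, within or just below the range of WT. Compared directly, ElkSapKO was lower than SapKO (-0.89, adjusted p = 0.00260 untreated, and -0.68, adjusted p = 0.0150 stimulated) and was not shown to differ from ElkKO (-0.39, 95% interval -0.67 to -0.11, adjusted p = 0.241, and -0.19, interval -0.47 to 0.09, adjusted p = 0.858).

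**Figure D3:**
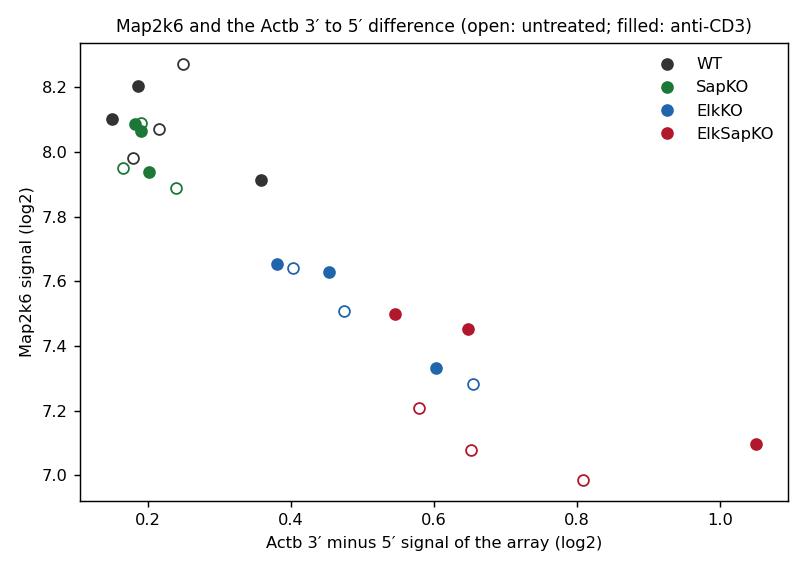
Map2k6 signal (log2, vertical axis) against the Actb 3′ minus 5′ signal of the same array (log2, horizontal axis) in the 24 arrays, coloured by genotype, with open circles for untreated and filled circles for stimulated cells. ElkSapKO arrays (0.545 to 1.05) and ElkKO arrays (0.381 to 0.654) lie to the right of and below the WT and SapKO arrays, so genotype and the Actb measure move together with Map2k6.

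The Actb measure did not overlap between WT and ElkSapKO, so its part in these differences and that of the genotype cannot be told apart. With it as a covariate, limma gave 0 calls among the kinases in either state of ElkSapKO, and 4 and 6 called genes in all. Map2k6 was then at -0.57 untreated and -0.22 stimulated (adjusted p = 0.427 and 0.747). Mapk6 was at -0.48 untreated and -0.31 stimulated, Mapk9 at -0.20 untreated and Map3k9 at 0.51 untreated (adjusted p = 0.703, 0.736, 0.895 and 0.666). In stimulated cells Map3k11 was at -1.03, Mapk7 at -0.81, Map4k1 at -0.50 and Map2k3 at -0.41 (adjusted p = 0.437, 0.406, 0.700 and 0.631). With the dap level as a block, Map2k6 was the 1 kinase called in each state (-0.95, adjusted p = 0.00512, and -0.65, adjusted p = 0.0422). Among the arrays of high dap level, which hold 1 WT mouse, it was at -0.89 and -0.56, and 0 kinases passed. With only the 6 arrays compared in the fit, 0 kinases passed untreated (Map2k6 adjusted p = 0.407) and 3 stimulated (Map2k6, Map3k11 and Mapk6). Without both arrays of ElkSapKO mouse 2, the calls of Map4k1 (adjusted p = 0.0803), Mapk9 (0.0568) and Map3k9 (0.140) were lost.

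Map2k3 was at 8.45, 8.48 and 8.54 log2 in stimulated WT mice 1 to 3 and at 7.84, 7.99 and 8.17 in stimulated ElkSapKO mice 1 to 3, with no overlap. The difference was -0.49 ± 0.140 (1.40-fold lower, adjusted p = 0.0396), and -0.38 in untreated cells (adjusted p = 0.120). Its second probe set fell too, by 0.57 untreated and by 0.72 stimulated (adjusted p = 0.0353 and 0.0114 over all probe sets). The call was lost without any single stimulated WT array (adjusted p = 0.0801 to 0.109), without stimulated SapKO mouse 3 (0.0503) and without stimulated ElkSapKO mouse 1 (0.212) or 2 (0.110).

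The MEK genes did not pass with all arrays, and both passed under some alternatives. Map2k1 was at 7.29, 6.87 and 7.85 log2 in untreated ElkSapKO mice 1 to 3 and at 7.31, 7.40 and 7.58 in stimulated ones, which is -0.58 and -0.39 from WT (adjusted p = 0.0560 and 0.165). The untreated difference passed with dim genes left out (adjusted p = 0.0393), with the mean of all probe sets (0.0438), with array weights (9.4e-05), without untreated ElkSapKO mouse 3 (-0.84, 0.00083) and with all probe sets tested (0.0414). The stimulated one passed with weights (0.00497) and without untreated ElkSapKO mouse 2 (0.0472). Map2k2 was at 7.58, 9.66 and 8.32 untreated, where mouse 2 was the highest of all 24 arrays, and at 7.63, 8.15 and 8.53 stimulated. Its differences were -0.37 and -0.96 (adjusted p = 0.478 and 0.0797). Without both arrays of ElkSapKO mouse 2, Map2k2 passed in both states (-0.94, adjusted p = 0.0332, and -0.98, adjusted p = 0.0160), and it did so with array weights too. Without the untreated array of mouse 2 alone it passed in both states as well (adjusted p = 0.0276 and 0.00450). On leaving out untreated mouse 1 the untreated difference was 0.10, and the stimulated one passed (adjusted p = 0.0213), as it did without the stimulated array of mouse 3 (0.0367). Map2k4 (MKK4), an activator of JNK, was at 0.10 and 0.06.

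In the MAP kinase tier Mapk6, Mapk7 and Mapk9 fell. Mapk6 was at 9.79, 9.71 and 9.67 log2 in untreated WT mice 1 to 3 and at 8.90, 9.08 and 8.95 in untreated ElkSapKO mice 1 to 3. In stimulated cells it was at 9.92, 9.90 and 9.91 in WT and at 9.23, 9.28 and 9.40 in ElkSapKO. The groups did not overlap in either state, and the 3 arrays of each group lay close together. The difference was -0.75 ± 0.149 untreated (1.68-fold lower, adjusted p = 0.0112) and -0.61 ± 0.149 stimulated (1.52-fold lower, adjusted p = 0.0193). A second probe set of Mapk6 fell by 1.41 and by 1.01, whereas its remaining sets, at 0.16 and -0.52 untreated and 0.23 and 0.20 stimulated, did not pass. The untreated call was lost without WT mouse 1 (adjusted p = 0.0741). The stimulated call was lost without any single stimulated WT array (adjusted p = 0.0506 to 0.0602) and without that of ElkSapKO mouse 1 (0.109) or 2 (0.0695).

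Mapk9, the JNK2 gene, was at 9.67, 9.45 and 9.52 log2 in untreated WT mice 1 to 3 and at 8.79, 8.01 and 9.17 in untreated ElkSapKO mice 1 to 3. ElkSapKO mouse 2 was the lowest of all arrays. The difference was -0.90 ± 0.209 (1.86-fold lower, adjusted p = 0.0219), and in stimulated cells -0.55 (adjusted p = 0.121). Without the untreated array of ElkSapKO mouse 2 it was -0.57 (adjusted p = 0.0595), and the call was also lost without any single untreated WT array (adjusted p = 0.0521 to 0.120). Its second probe set fell in both states, by 0.93 and by 0.77 (adjusted p = 0.00915 and 0.0232), and the remaining set was at -0.53 and -0.24 with no call.

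Mapk7 encodes ERK5. It was at 7.61, 7.46 and 7.85 log2 in stimulated WT mice 1 to 3 and at 6.61, 6.65 and 7.29 in stimulated ElkSapKO mice 1 to 3, with no overlap. The difference was -0.79 ± 0.182 (1.73-fold lower, adjusted p = 0.0139), and -0.59 in untreated cells (adjusted p = 0.0712). In ElkKO it was at -0.43 and -0.51 (adjusted p = 0.593 and 0.267). The call was lost without the stimulated array of WT mouse 3 (adjusted p = 0.0600) and of ElkSapKO mouse 1 (0.110) or 2 (0.0727).

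**Figure D4:**
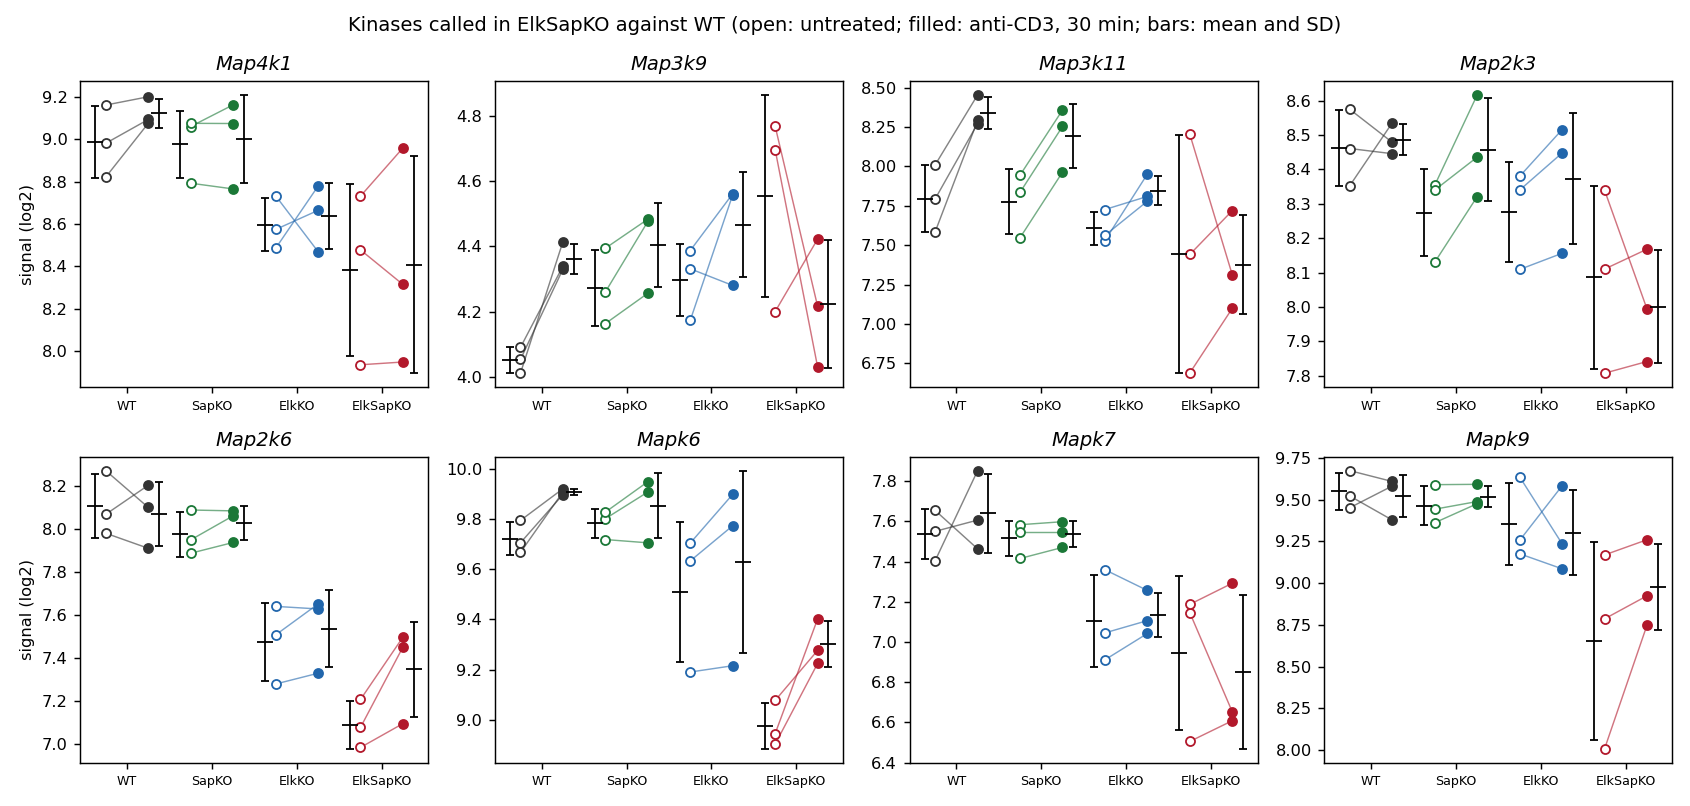
Signals (log2, vertical axes) of the 8 kinases called in ElkSapKO against WT, by genotype, with open circles for untreated and filled circles for stimulated arrays, lines joining the arrays of a mouse, and black bars for the mean and SD of 3 arrays. Map2k6 and Mapk6 in ElkSapKO lie below WT in both states without overlap, whereas Mapk9 and Map4k1 have ElkSapKO mice that lie close to WT.

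Several kinases gave different values by probe set, among them the p38 alpha gene Mapk14 and the JNK1 gene Mapk8. The brightest set of Mapk14, used here, was at -0.23 untreated and -0.15 stimulated with no call. Of its 5 other sets 3 fell in untreated cells, with changes of -1.2, -0.66 and -1.72 log2 (adjusted p = 0.0227, 0.0437 and 0.0215), and the remaining 2 were above WT at 0.71 and 0.22 with no call. For Mapk8 the set used was at 0.06 and 0.18, and in stimulated cells one other set fell by 1.11 and another rose by 0.98 (adjusted p = 0.0470 and 0.0404). With all 34945 probe sets tested, 16 of the members' 92 sets passed in untreated and 18 in stimulated ElkSapKO cells, against 6.72% and 7.04% of all sets, and these belonged to 12 and 15 kinases. Of the 16 sets 15 fell and 1 rose, and of the 18 sets 15 fell and 3 rose. The 3 were the set of Mapk8 above and sets of Map3k7 (0.76) and Map3k12 (1.22), MAP3K genes whose brightest sets were at 0.02 and -0.30. Both of these sets had mean signals near background (3.70 and 3.77), and in untreated cells another set of Map3k7 fell by 0.58. Map2k6, Map3k8, Map3k11, Map4k1, Mapk7 and Map2k1 have a single set, so no second set was read for them.

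**Figure D5:**
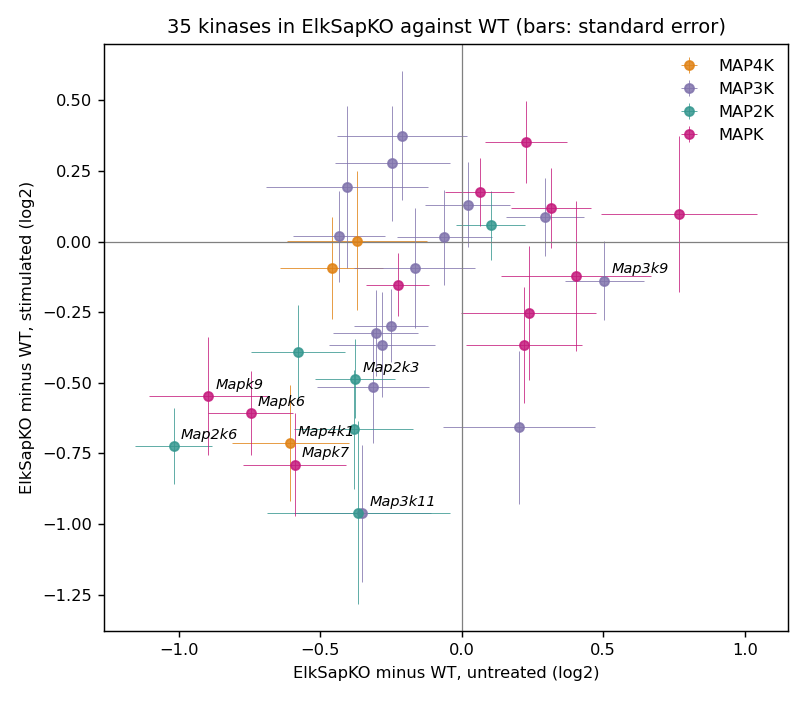
Difference of ElkSapKO from WT (log2) in untreated cells (horizontal axis) and in stimulated cells (vertical axis) for the 35 kinases, coloured by tier, with bars for the standard error. Map2k6 (-1.02 and -0.72) and Mapk6 (-0.75 and -0.61) are below 0 in both states, and Map3k9 is above 0 in untreated cells only.

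ElkSapKO was also compared with each single knockout, a comparison chosen after the values were seen, in which both share the ElkSapKO arrays. Against SapKO, 3 of 35 fell in untreated cells (Map2k6, Mapk6 and Mapk9), against 2.03% of all genes, and 3 in stimulated cells (Map2k6, Mapk6 and Mapk7), against 2.6%. Against ElkKO, limma called 0 in both states (6 and 3 at an unadjusted p under 0.05, against 16.8% and 7.49% of all genes), against 0.115% and 0.044% of all genes. The smallest adjusted p values there were those of Mapk6 untreated (-0.53, adjusted p = 0.182) and Map3k8 stimulated (0.69, adjusted p = 0.461).

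Of 48 other genes of the pathway listed beside the members, 42 were measured, and limma gave 0 calls among them in each response. At an unadjusted p under 0.05 there were 0 in WT (4.23% of all genes), 0 in SapKO (2.23%), 1 in ElkKO (2.56%), 4 in ElkSapKO (7.92% of all genes) and 1 in the averaged response (6.93% of all genes). None passed in SapKO (0 and 1 at an unadjusted p under 0.05, against 1.65% and 2.97% of all genes) or ElkKO (4 and 7, against 7.21% and 11.4%). In untreated ElkSapKO 3 of 42 fell and none rose, against 2.69% of all genes lower: Araf, a Raf kinase above MEK, by 0.97 log2, Traf6, an adaptor that activates the MAP3K Map3k7, by 1.58, and the related kinase gene Stk25 by 0.99 (adjusted p = 0.0254, 0.0117 and 0.0104). In stimulated ElkSapKO 5 of 42 fell and none rose, against 5.43% of all genes lower. Taok2, a MAP3K with another name, fell by 1.21, the JNK scaffold gene Mapk8ip3 by 1.18, Stk25 by 0.76 and the adaptor gene Traf2 by 0.58 (adjusted p = 0.0151, 0.0228, 0.0230 and 0.0316). The median of the 42 was -0.20 untreated and -0.21 stimulated, against 0.03 and -0.005 over all genes.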

How the data were processed

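The values are log2 signals that the authors deposited for 24 arrays after RMA with the affy package, per the submitters' processing notes. The sources used here name no version or build. RMA corrects background, normalizes by quantiles and summarizes the probes of a set, so arrays are forced to 1 distribution. Of 45101 probe sets, 34945 carry a single gene symbol in the platform annotation, 932 several and 9160 none; 64 are controls. Each gene was read from its brightest single-symbol set, which left 18193 genes.

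A limma model (3.58.1, R 4.3.3) with 1 mean per group had 16 residual degrees of freedom and gave 14 comparisons, with 4 added after values were seen. P-values were adjusted by Benjamini-Hochberg over all genes within a comparison, and a kinase is said to pass, rise or fall at an adjusted p under 0.05. The script was tested on simulated data. Figures were drawn with matplotlib 3.10.9 (Python 3.11.15).

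Kinases that passed in any comparison, with Map2k1 and Map2k2, are given array by array; where none passed, the one with the smallest adjusted p is named; other pathway genes are named up to 4 per comparison. The members and lists were chosen with earlier results of these data known. The labels name the mouse of each array, so untreated and stimulated arrays of a mouse are paired; their deviations from the group means correlated at -0.0098 to 0.832, above 0.1 in 10 of 12 mice. The main fit has no block. Alternatives changed the mouse block, the arrays fitted or weighted, the normalization, the variance prior, the probe set rule, the filter on dim genes, and the Actb and dap terms.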

Additional observations from a re-analysis of the deposited data

How the results depend on the processing

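The number of kinases that passed in the SapKO response went from 0 to 1 with only its own arrays, with array weights, with the Actb covariate and without both arrays of ElkSapKO mouse 2. In the ElkSapKO response it went from 1 to 0 with only its own arrays, without dim genes, with high dap arrays alone and without that mouse, and to 3 with weights. In the averaged response it went from 1 to 2 with weights and without that mouse, and to 0 without dim genes, among which Map3k8 is, and with high dap arrays alone. In ElkKO against WT it went from 0 to 4 untreated and 3 stimulated with weights, and to 1 in each state without that mouse.

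In ElkSapKO against WT the numbers were 4 untreated and 6 stimulated. They became 0 and 3 with only the arrays compared, 16 and 14 with weights, 2 and 3 with cyclic loess, 1 and 1 with the dap block, 0 and 0 with the Actb covariate, 0 and 0 with high dap arrays alone, and 12 and 15 where any probe set counted. Weights kept all 4 and all 6, and the cause of these moves was not tested. Leaving out 1 array at a time gave 0 to 1 in the SapKO, 0 to 1 in the ElkSapKO and 1 to 2 in the averaged response, 0 to 1 in each state of ElkKO, 1 to 12 in untreated and 1 to 10 in stimulated ElkSapKO. The 12 came without untreated ElkSapKO mouse 3, the 10 without untreated ElkSapKO mouse 2, and the lowest numbers without WT or stimulated ElkSapKO arrays. The number stayed at 0 in the WT and ElkKO responses, in SapKO against WT and in the response differences under each alternative run.

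With mouse as a replicate block, the numbers in ElkSapKO against WT were 3 untreated and 7 stimulated. Map3k9 lost its call (adjusted p = 0.0556), and no other call of a kinase named here was lost. No change of a kinase that passed, in the comparison where it passed, turned direction under the alternatives run. Values that did not pass did: the Map3k8 response difference of ElkKO (-0.03) ranged from -0.38 to 0.15 and that of SapKO (0.40) from -0.10 to 0.58, the averaged Map2k2 response from -0.18 to 0.15 and that of Map2k1 from -0.11 to 0.009, untreated Map2k2 in ElkSapKO from -1.20 to 0.10, and untreated Map3k11 in ElkSapKO from -1.01 to 0.03. The Actb measure did not overlap between WT and ElkKO or between WT and ElkSapKO. The fit on only the compared arrays does not apply to the averaged response, which uses all arrays. The 9 kinases near background were left out under the filter on dim genes.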
